A study of Mus musculus with 27 samples.

Results

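The genes described here are 10 members of the response to endoplasmic reticulum (ER) stress and of its ATF4 arm: Hspa5, Hsp90b1, Xbp1, Herpud1, Atf4, Ddit3, Trib3, Chac1, Asns and Sesn2. They were taken by symbol from a table of 40129 genes measured in whole mouse retina, and all 10 passed the filter on low values that left 27137 genes for testing. RNA was sequenced from the retinas of 27 wild-type C57BL/6 pups (C57BL/6J in the study's methods) in 4 groups. The nOIR pups stayed in room air and were collected on postnatal day 14 (nOIR p14) or 17 (nOIR p17). The OIR pups went through oxygen-induced retinopathy, in which a stay in high oxygen removes central retinal vessels and the return to room air leaves the retina short of oxygen. They were collected at p14, the ischemic stage (OIR p14), or at p17, when new vessels are most extensive (OIR p17). Each sample was 1 pup, from which 1 or 2 retinas were taken, and each group drew on more than 1 litter. Male and female pups were used, and the sex and litter of each sample are not given in the sources used here. All pups were non-diabetic, and whole retina mixes neurons, glia, vessels and immune cells. In such bulk samples, fewer cells of a type and less RNA per cell cannot be told apart.

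When unfolded proteins build up in the ER, 3 sensors act. IRE1 splices Xbp1 messenger RNA so that it encodes an active transcription factor, ATF6 is cut to release another, and PERK phosphorylates the initiation factor eIF2alpha. Phosphorylated eIF2alpha slows general translation while the messenger RNA of ATF4 is translated better, so ATF4 activity is set largely at the protein level. The kinases GCN2, HRI and PKR reach the same factor from amino acid shortage, heme shortage and double-stranded RNA, and the shared outcome is called the integrated stress response. In the retina this response has been studied in photoreceptors, which make large amounts of membrane protein, and in vessels that grow under hypoxia.

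Values are normalized reads, that is, reads per gene divided by 1 scaling factor per pup. Library depth ran from 17029536 reads in OIR p17 mouse S1 to 33593428. Mouse S4 of nOIR p14, which the study's methods set aside for lens RNA, was left out, so that 6 control and 6 OIR pups were compared at p14, and 6 control and 8 OIR pups at p17. Rod markers, led by rhodopsin, summed to 841209 to 1554100 normalized reads over these pups, which marks the tissue as retina. Lens RNA was also found outside the excluded mouse. The sum of 6 lens markers was 16936 in nOIR p14 S4 and was higher in 4 pups that stayed in the comparison, namely nOIR p14 S5 (18003), OIR p17 S2 (31988), OIR p17 S7 (17199) and OIR p17 S8 (21939). Calls for the members and the pathway lists are given with and without these 4 lens-rich pups. Leaving them out also leaves fewer pups to compare, most of those removed being OIR p17 pups. Correlations between genes and sums of cell type markers are given only with them.

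The first question was whether the 10 genes differed between OIR and nOIR retinas at the ischemic stage. At p14, 0 of 10 members passed an adjusted p of 0.05 in either direction (limma on log2(value + 1), Benjamini-Hochberg adjustment over all genes tested), against 3.18% of all genes higher and 2.91% lower. At an unadjusted limma p under 0.05 there were 2 members, Xbp1 and Sesn2, both lower in OIR. The share of all genes at that threshold is not given here, so this count is not read against a background. With other tools, edgeR called 0 members (865 genes higher and 697 lower of 27137 tested). DESeq2 called 1, Sesn2 (1123 genes higher and 963 lower of 27137). The median log2 fold change was -0.06 over the members and 0.017 over all genes tested.

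At p17, when neovascularization peaks, 4 of 10 members were higher in OIR and 0 were lower, against 7.39% of all genes higher and 5.12% lower. Trib3 rose 1.96-fold and Chac1 1.80-fold, Ddit3 1.33-fold and Xbp1 1.32-fold. The median log2 fold change was 0.22 over the members and -0.023 over all genes tested. Without the 4 lens-rich pups the count fell to 2, Trib3 and Chac1, against 6.20% of all genes higher and 3.89% lower in that setting. No member had a log2 fold change beyond 2, which is the size the study asked of a differentially expressed gene and which 0.884% of all genes reached with an adjusted p under 0.05 at p14 and 2.07% at p17.

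**Figure D1:**
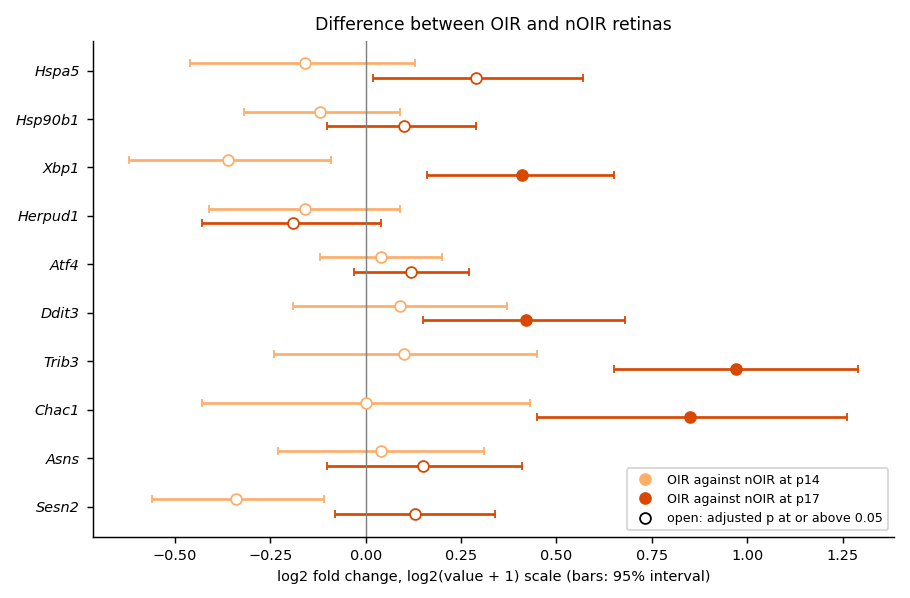
Log2 fold change of OIR against nOIR for the 10 members, at p14 (light) and p17 (dark), on the log2(value + 1) scale with 95% intervals from limma. Filled points have an adjusted p under 0.05, which at p17 are Trib3 (0.97), Chac1 (0.85), Ddit3 (0.42) and Xbp1 (0.41), and no point is filled at p14.

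The ER chaperones come first. Hspa5 encodes BiP, the main HSP70-type chaperone of the ER, which holds the stress sensors inactive until unfolded proteins draw it away. Hsp90b1 encodes GRP94, the HSP90-type chaperone of the same compartment. Both are known targets of ATF6 and XBP1 through the ER stress response element (ERSE), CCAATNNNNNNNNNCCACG. In the 250 bases before the start of each gene in RefSeq (build GRCm38.p6), on either strand, this motif was found in 0.113% of 32851 windows, and among the 10 members, which all have a window, in those of Hspa5 and Hsp90b1. The stretches are shown because the motif sets the 2 chaperones apart from the other members by sequence. They run in the direction of transcription with the motif in capitals, from chr2:34772000-34772068 (plus strand), chr10:86705613-86705681 and chr10:86705508-86705576 (both minus strand), and the motif lies reversed in the last of them.
Hspa5: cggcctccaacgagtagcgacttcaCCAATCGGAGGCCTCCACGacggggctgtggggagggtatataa
Hsp90b1, distal: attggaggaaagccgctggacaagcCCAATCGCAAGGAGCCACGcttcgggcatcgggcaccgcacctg
Hsp90b1, proximal: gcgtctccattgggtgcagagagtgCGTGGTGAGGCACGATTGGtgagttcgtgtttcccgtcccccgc

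Hspa5 in nOIR p14 ranged from 13196 to 18080 normalized reads (median 16902), and in OIR p14 from 12175 to 16644 (median 14482). At p17 it ranged from 8503 to 16794 in nOIR (median 14830) and from 12538 to 20808 in OIR (median 17275). The groups overlapped at both ages, and 5 of 8 OIR p17 pups lay above every nOIR p17 pup. The log2 fold change was -0.16 at p14 (SE 0.14, adjusted p = 0.656) and 0.29 at p17 (SE 0.13, 95% interval 0.02 to 0.57, adjusted p = 0.174 by limma), so neither difference passed the test. The p17 difference did pass when the pups were forced to the same distribution of values by quantile normalization (log2 fold change 0.40, adjusted p = 0.0186). It was 0.16 without nOIR p17 S1, the lowest control (adjusted p = 0.497), and 0.20 without the lens-rich pups (adjusted p = 0.538).

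Hsp90b1 showed the smallest p17 difference of the 10 members. It ranged from 10030 to 13040 normalized reads in nOIR p17 (median 11491) and from 10163 to 14461 in OIR p17 (median 12913). The log2 fold change at p17 was 0.10 with a 95% interval of -0.10 to 0.29 (adjusted p = 0.614), and at p14 it was -0.12 (adjusted p = 0.641 by limma). In the reference annotation its exons overlap those of 1810014B01Rik on the opposite strand and of 2 predicted genes on the same strand, which the counts cannot separate. Both chaperones carry the ERSE shown above, and neither was called at either age.

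Xbp1, the transcription factor gene downstream of IRE1, was the member with the lowest p14 difference, and at p17 its difference had the opposite sign, as had those of Hspa5, Hsp90b1 and Sesn2. At p14 it ranged from 4505 to 5107 normalized reads in nOIR (median 4980) and from 2917 to 4340 in OIR (median 4042). Every OIR p14 pup was below every nOIR p14 pup. The exact two-sided permutation p was 0.00216, the smallest that 6 against 6 pups can give, while limma gave a log2 fold change of -0.36 (SE 0.13, 95% interval -0.62 to -0.09) with an adjusted p of 0.109.

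At p17 the order of Xbp1 was the other way round. It ranged from 3221 to 4995 normalized reads in nOIR (median 4348) and from 4171 to 7259 in OIR (median 5909). The groups overlapped, with 5 of 8 OIR pups above every nOIR pup. On the log2 scale the difference was 0.41 (SE 0.12, 95% interval 0.16 to 0.65, limma adjusted p = 0.0217; exact permutation p = 0.0200). The call was lost without the lens-rich pups (0.33, adjusted p = 0.153), where fewer OIR p17 pups were compared. With only the compared groups fitted the difference kept its size and missed the threshold (0.41, adjusted p = 0.0576 by limma). It was also lost without any 1 of nOIR p17 S1, nOIR p17 S3 or OIR p17 S3 (0.33 to 0.37, adjusted p = 0.0501 to 0.0828). Counts per gene do not separate the spliced from the unspliced form, so the activity of the factor was not measured.

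The change of effect was tested directly as the OIR difference at p17 minus that at p14. For Xbp1 it was 0.76 on the log2 scale (SE 0.18, 95% interval 0.40 to 1.12, adjusted p = 0.0169 by limma), and for Trib3 it was 0.87 (SE 0.23, adjusted p = 0.0492). These were 2 of 10 members higher and 0 lower, against 1.43% of all genes higher and 0.147% lower. The Xbp1 call held without each of the 26 pups in turn (adjusted p = 0.00556 to 0.0387). The Trib3 call was lost without any 1 of 20 of the 26 pups (adjusted p = 0.0530 to 0.104). It stayed only without nOIR p14 S1 or S7, OIR p14 S4, nOIR p17 S3, or OIR p17 S4 or S5. The size of the Trib3 difference was 0.76 to 0.96 over all 26 omissions. Without the 4 lens-rich pups neither passed (Xbp1 0.68, adjusted p = 0.131; Trib3 0.62, adjusted p = 0.353). Chac1 had a difference of the same size, 0.85, that did not pass (SE 0.29, adjusted p = 0.184) except without OIR p17 S4 (1.03, adjusted p = 0.00890) or with DESeq2 (0.93, adjusted p = 0.0334).

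Herpud1 encodes an ER membrane protein that brings misfolded proteins to the degradation machinery. It was the only member with a negative log2 fold change at p17, and it passed the test at neither age. It ranged from 2445 to 3044 normalized reads in nOIR p17 (median 2647) and from 1986 to 3072 in OIR p17 (median 2264), and 6 of 8 OIR pups were below every nOIR pup while 1, OIR p17 S8, was above them all. The fitted log2 difference was -0.19 at p17 (SE 0.11, adjusted p = 0.340) and -0.16 at p14 (SE 0.12, adjusted p = 0.583 by limma). Its upstream window was the only one among the members with ERSE-II, ATTGGNCCACG, which 0.0304% of all windows hold on either strand. It also held the amino acid response element (CARE), TGATGNAA, in 3.45% of all windows, to which ATF4 is known to bind with a C/EBP partner. ERSE-II and CARE are given in capitals from chr8:94386352-94386412 and chr8:94386292-94386349 (plus strand, GRCm38.p6), CARE being reversed.
Herpud1, ERSE-II: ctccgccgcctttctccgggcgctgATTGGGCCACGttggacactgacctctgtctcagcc
Herpud1, CARE: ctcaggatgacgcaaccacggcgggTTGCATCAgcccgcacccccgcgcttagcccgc

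**Figure D2:**
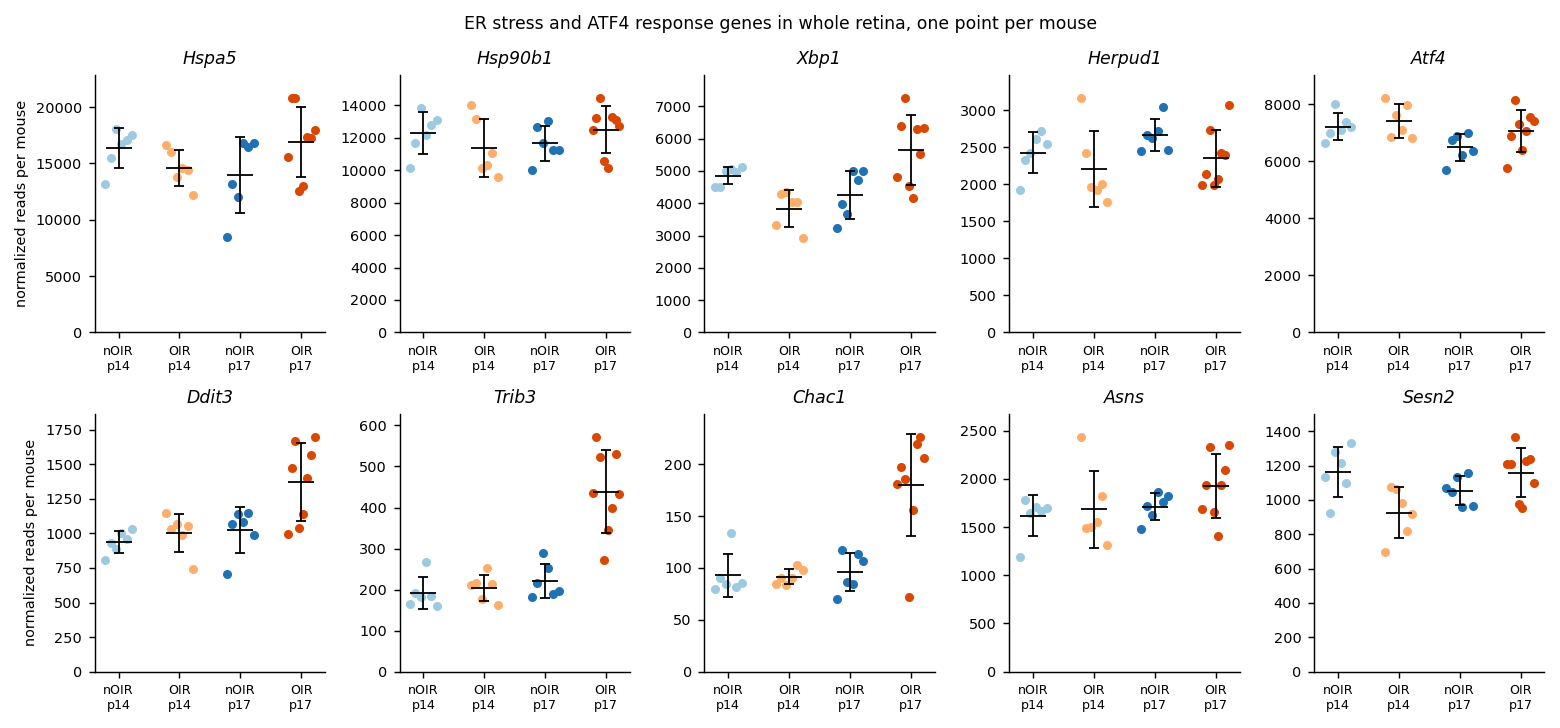
Normalized reads of each member in every pup of the 4 groups, with the mean and SD (black), each vertical axis starting at 0. Trib3 and Chac1 of OIR p17 stand above every pup of the other groups except in pup S4 (272.9 and 72.45 normalized reads), and Xbp1 is lower in OIR than in nOIR at p14 and higher at p17.

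Atf4 itself encodes the transcription factor at the centre of the integrated stress response. Its level differed little between the 4 groups, with median normalized reads of 7141 and 7355 at p14 and of 6563 and 7186 at p17, controls named first. Within groups it ranged from 5700 in nOIR p17 to 8219 in OIR p14, and the groups overlapped at both ages. The log2 fold change of OIR against nOIR was 0.04 at p14 (95% interval -0.12 to 0.20, adjusted p = 0.887) and 0.12 at p17 (-0.03 to 0.27, adjusted p = 0.355 by limma). These intervals hold no change of the size seen for Trib3, and since ATF4 is set largely by translation, the protein was not measured by them.

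Ddit3 encodes CHOP, a transcription factor that ATF4 induces and that is known for promoting cell death under lasting stress. It ranged from 703.9 to 1148 normalized reads in nOIR p17 (median 1076) and from 992.5 to 1695 in OIR p17 (median 1436). The groups overlapped, with 5 of 8 OIR pups above every nOIR pup. The log2 fold change was 0.42 (SE 0.13, 95% interval 0.15 to 0.68, limma adjusted p = 0.0285; exact permutation p = 0.0230). At p14 it was 0.09 (adjusted p = 0.833), with medians of 945.6 in nOIR and 1040 in OIR.

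The Ddit3 call depended on which pups were included. It was lost without any 1 of nOIR p17 S1, nOIR p17 S6 or OIR p17 S2, S3, S7 or S8 (log2 fold change from 0.31, adjusted p = 0.0501 to 0.113), without the 4 lens-rich pups (0.28, adjusted p = 0.270) and with the level of the lens gene Cryaa as a covariate (0.37, adjusted p = 0.0540). Among the 8 OIR p17 pups Ddit3 rose with the summed lens markers, both on the log2(value + 1) scale used for all such correlations (Pearson's r = 0.94, exact permutation p = 0.00315, adjusted p = 0.0472; Spearman's rho = 0.81, p = 0.0218, adjusted p = 0.168; r = 0.88 without S1 and S5, the pups farthest from the lens median on that scale). The adjustment covered 30 relations, of 10 members with lens, endothelial and pericyte and fibroblast markers. In the reference annotation the Ddit3 exons also overlap those of Mars on the opposite strand, and the library kit does not mark strand, so reads there were not attributable to one gene.

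Trib3, a pseudokinase gene that CHOP and ATF4 switch on and whose product restrains both, had the largest OIR difference of the 10 members. In nOIR p17 it ranged from 183 to 290 normalized reads (median 207.1), and in OIR p17 from 272.9 to 571.1 (median 434.7). In OIR p17, 7 of 8 pups were above every nOIR pup and the remaining one, S4, was above the nOIR median. The means were 221 ± 41.9 (SD, n = 6) and 439 ± 100 (SD, n = 8). On the log2 scale the difference was 0.97 (SE 0.16, 95% interval 0.65 to 1.29, limma adjusted p = 3.77e-05; exact permutation p = 9.99e-04), and it passed in all 39 alternatives run, with values of 0.82 to 1.06. Without the lens-rich pups it was 0.82 (adjusted p = 8.89e-04).

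At p14 Trib3 did not separate the groups. It ranged from 160.1 to 268 normalized reads in nOIR (median 182.1) and from 161.4 to 251.9 in OIR (median 211.5). The fitted log2 difference was 0.10 (95% interval -0.24 to 0.45, adjusted p = 0.848 by limma). The highest nOIR p14 value belonged to the lens-rich pup S5.

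Chac1 encodes an enzyme that degrades glutathione and is a known target of ATF4 and CHOP. It ranged from 70.3 to 116.8 normalized reads in nOIR p17 (median 96.3) and from 72.45 to 225.9 in OIR p17 (median 191.3). In OIR p17, 7 pups were above every nOIR pup, from 155.4 upward, and S4 alone lay among the controls. The means were 96.3 ± 18.5 (SD, n = 6) and 180 ± 49.0 (SD, n = 8). The log2 fold change was 0.85 (SE 0.20, 95% interval 0.45 to 1.26, limma adjusted p = 0.00291; exact permutation p = 0.00599), and it passed in all 39 alternatives run, with values of 0.67 to 1.03. Without the lens-rich pups it was 0.68 (adjusted p = 0.0441).

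At p14 the Chac1 groups could not be told apart. The range was 79.91 to 134 normalized reads in nOIR (median 85.4) and 83.69 to 102.6 in OIR (median 90.3), with a log2 fold change of 0.00 (95% interval -0.43 to 0.43, adjusted p = 1.00 by limma). The highest nOIR value was again that of the lens-rich pup S5. The Chac1 window holds a CARE, reversed and in capitals here, from chr2:119351024-119351081 (plus strand, GRCm38.p6), and so does that of Asns, from chr6:7693210-7693257 (minus strand). Both are printed because, with Herpud1, they are the members with this ATF4 element in their window. None of the 3 motifs was found in the windows of Trib3, Ddit3, Sesn2, Xbp1 or Atf4, which says only that these letters are not in them.
Chac1, CARE: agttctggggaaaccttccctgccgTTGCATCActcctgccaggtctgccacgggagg
Asns, CARE: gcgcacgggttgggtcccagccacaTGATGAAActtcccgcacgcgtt

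**Figure D3:**
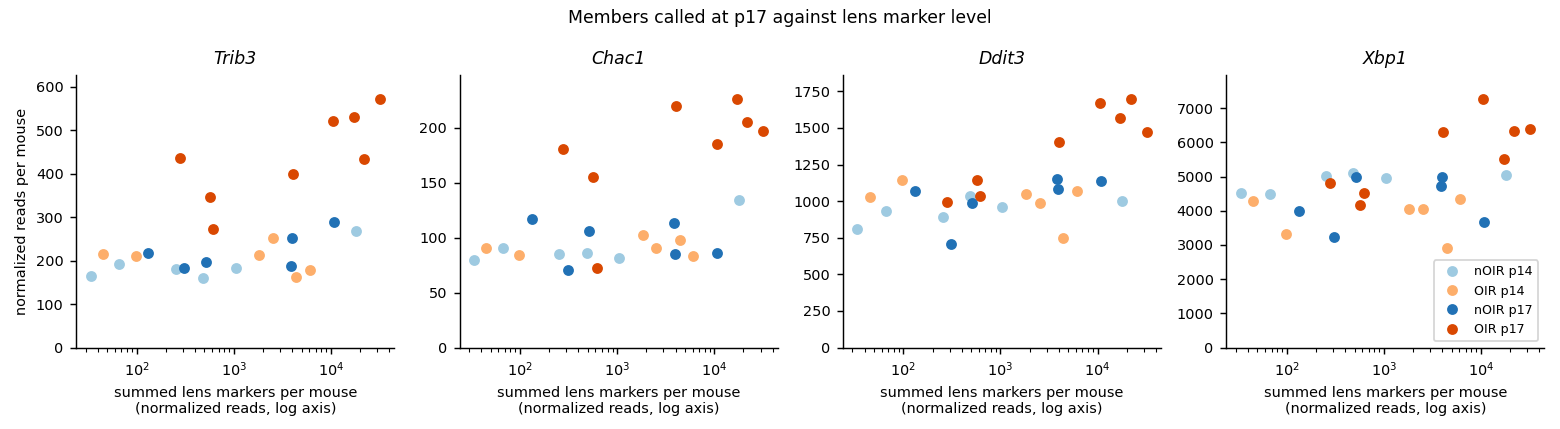
Normalized reads of the 4 members called at p17 against the summed level of 6 lens markers in the same pup, on a log axis, coloured by group. Below a lens level of 1000, a mark used for this description only, the p17 pups are OIR p17 S1, S4 and S5 and nOIR p17 S1, S2 and S6. Among these, the Trib3 and Chac1 values of OIR p17 lie above those of nOIR p17, apart from S4 for Chac1. The Ddit3 values overlap, OIR p17 lying between 992.5 and 1141. The Xbp1 values also overlap, from 4171 to 4804 in OIR p17 and from 3221 to 4990 in nOIR p17. The part of lens RNA in these values was not tested.

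Asns, the asparagine synthetase gene, ranged from 1478 to 1861 normalized reads in nOIR p17 (median 1736) and from 1404 to 2348 in OIR p17 (median 1936). The OIR pups spread on both sides of the controls, with 5 of 8 above and 1 below every nOIR pup. On the log2 scale the difference was 0.15 at p17 (95% interval -0.10 to 0.41, adjusted p = 0.521) and 0.04 at p14 (-0.23 to 0.31, adjusted p = 0.936 by limma). The p14 value turned negative without nOIR p14 S1 or without OIR p14 S1, the lowest and the highest pup.

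Sesn2 encodes a sestrin that senses leucine and holds back mTORC1, and ATF4 is known to induce it. Like Xbp1, it was lower in OIR at p14, with every OIR p14 pup under the nOIR median of 1176 normalized reads. It ranged from 923.4 to 1332 in nOIR p14 and from 695.4 to 1078 in OIR p14 (median 951). The fitted log2 difference was -0.34 (SE 0.11, 95% interval -0.56 to -0.11, limma adjusted p = 0.0722; exact permutation p = 0.0216). It did not pass the test except with Cryaa as a covariate (-0.37, adjusted p = 0.0364), with DESeq2 (-0.33, adjusted p = 0.0433) and without any 1 of nOIR p14 S2, OIR p14 S2 or OIR p14 S3 (adjusted p = 0.0313 to 0.0499). At p17 it was 0.13 (adjusted p = 0.510), with medians of 1057 in nOIR and 1211 in OIR.

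Age was compared within each arm to see which group moved. Between nOIR p14 and nOIR p17, 0 of 10 members passed the limma test, against 0.158% of all genes higher and 0.158% lower, and edgeR and DESeq2 also called 0. At an unadjusted limma p under 0.05 there were 0 members (3 with the Cryaa covariate or the same total per pup). The share of all genes at that threshold is not given here. Between OIR p14 and OIR p17, Trib3, Chac1, Xbp1 and Ddit3 were higher at p17 and 0 members were lower, against 4.11% of all genes higher and 1.81% lower. Atf4 had an exact permutation p of 0.0216 between the nOIR ages (log2 fold change -0.15, limma adjusted p = 0.722), with all 6 nOIR p17 pups below the nOIR p14 median. The comparison of the OIR ages shares the OIR p17 pups with the one against nOIR p17.

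Trib3 was 2.10-fold higher in OIR p17 than in OIR p14 (log2 fold change 1.07, SE 0.16, adjusted p = 3.80e-05), and all 8 older pups were above all younger ones. Chac1 rose by 0.91 (SE 0.20, adjusted p = 0.00399), Xbp1 by 0.56 (SE 0.12, adjusted p = 0.00337) and Ddit3 by 0.43 (SE 0.13, adjusted p = 0.0398 by limma). Without the lens-rich pups Trib3 kept its call (0.92, adjusted p = 0.00109), while Chac1 (0.74, adjusted p = 0.0648), Xbp1 (0.48, adjusted p = 0.0532) and Ddit3 (0.30, adjusted p = 0.340) did not. The Ddit3 call was also lost without any 1 of OIR p14 S2, S4, S5 or S6 or OIR p17 S2, S3, S6, S7 or S8 (log2 fold change 0.35 to 0.45, adjusted p = 0.0548 to 0.134). It did not pass with the compared groups only (0.43, adjusted p = 0.111), the replicate block (0.35, adjusted p = 0.128) or the Xist covariate (0.41, adjusted p = 0.0751). Nor did it with the Cryaa covariate (0.36, adjusted p = 0.112) or all genes above 0 in any pup tested (0.43, adjusted p = 0.0583). Sesn2 was 0.33 higher at p17 and missed the threshold (adjusted p = 0.0547). It passed in 8 of 39 alternatives, namely DESeq2 (0.0289), a mean of at least 10 (0.0410), quantile normalization (0.0451) and without any 1 of nOIR p14 S2, OIR p14 S2, OIR p14 S3, OIR p17 S4 or OIR p17 S5 (0.0285 to 0.0453), and was 0.31 without the lens-rich pups (adjusted p = 0.222).

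The OIR p17 pups differed among themselves. S4 and S5 were the 2 lowest pups of that group for Hspa5, Hsp90b1, Xbp1, Trib3, Chac1, Asns and Sesn2, and S2 or S3 was the highest for Hspa5, Xbp1 and Trib3. Over the 45 pairs of members in these 8 pups, all 45 Pearson coefficients were positive (median 0.71), 14 passed an adjusted p of 0.05 by exact permutation, and 0 passed for Spearman's rho (smallest adjusted p = 0.0502). Over all 180566506 pairs of the 19004 genes with a mean of at least 10 in the same pups, 49.6% of coefficients were positive (median -0.01). The lens marker sum was positively correlated with all 10 members as well (median r = 0.71). So was the pericyte and fibroblast sum (median r = 0.69), and the endothelial sum was with 9 (median r = 0.425). By Pearson's r, 1, 2 and 0 of these relations passed an adjusted p of 0.05, and 0 passed for Spearman's rho. They are given without the share of all genes that rise with each sum. The part of these sums in the relations between members was not tested. The highest coefficient was that of Sesn2 and Hsp90b1 (r = 0.96, exact permutation p = 0.00141, adjusted p = 0.0198, and rho = 0.90). Xbp1 with Asns and Hspa5 with Trib3 each gave r = 0.90 (adjusted p = 0.0244 by exact permutation). The 2 members most tightly tied to Xbp1 were Hspa5 (r = 0.93, exact permutation p = 6.45e-04, adjusted p = 0.0145; rho = 0.95, p = 0.00114, adjusted p = 0.0502) and Hsp90b1 (r = 0.91, p = 5.46e-04, adjusted p = 0.0145; rho = 0.88, p = 0.00724, adjusted p = 0.0543). Without S4 and S5, the pups farthest from the Hspa5 and Xbp1 medians, r of Xbp1 with Hspa5 and Hsp90b1 was 0.85 and 0.81. The pair Trib3 and Chac1 gave r = 0.80 (exact permutation p = 0.0185, adjusted p = 0.0519; rho = 0.55, p = 0.171, adjusted p = 0.226). Without S2 and S4, the pups farthest from the Trib3 median, r was 0.54, and no test was made on the remaining pups.

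Markers of other cell types moved with the p17 comparison. The 5 pericyte and fibroblast markers summed to 2473 to 3290 normalized reads in nOIR p17 and 8271 to 11801 in OIR p17, with 5 of 5 called higher. The 5 endothelial markers summed to 2230 to 2661 and 4714 to 5981, with 4 of 5 called higher, and the 5 microglia and macrophage markers to 744.2 to 926.1 and 1630 to 2728, again with 4 of 5 higher. The OIR and nOIR pups did not overlap in these 3 sums. Of the Müller glia markers 3 of 5 were called lower and 0 higher, and their sums overlapped (60591 to 77052 and 49274 to 79121). Lower calls were also made for 3 of 6 markers of bipolar, amacrine and ganglion neurons, whose sums did not overlap (20026 to 24071 and 13115 to 17603), and for 2 of 5 rod markers, with 0 higher in either list. At p14 the Müller glia sums did not overlap (60759 to 80414 in nOIR and 45607 to 58029 in OIR, with 4 of 5 called lower). Lower calls at p14 were also made for 2 of 6 markers of bipolar, amacrine and ganglion neurons and 1 of 5 rod markers. Of the endothelial markers 1 was called higher and 1 lower at p14, as was so for the pericyte and fibroblast markers. Of the microglia and macrophage markers 1 was called higher at p14 and 0 lower. From OIR p14 to OIR p17, 5 of 5 endothelial, 5 of 5 pericyte and fibroblast and 3 of 5 microglia and macrophage markers were called higher, as were 2 of 5 rod and 2 of 5 Müller glia markers, and 1 of 6 markers of bipolar, amacrine and ganglion neurons was called lower. Of the 4 plasma cell markers, Mzb1 was at 0 in 12 pups and Tnfrsf17 in 11, while Jchain and Sdc1 were above 0 in all. Their sums overlapped at p17 (496.6 to 703.9 and 533.6 to 803.4), and 1, Sdc1, was called higher at both ages. The part of these shifts in the member results was not tested.

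Within the OIR p17 group, all 10 members had positive Pearson coefficients with the pericyte and fibroblast sum (median 0.69), and 2, Hspa5 and Trib3, passed an adjusted p of 0.05. Xbp1 did not pass, with r = 0.66 (exact permutation p = 0.0630, adjusted p = 0.146) and 0.44 without S3 and S4. Its Spearman's rho was 0.88 (p = 0.00724, adjusted p = 0.109). For Hspa5 r was 0.84 (exact permutation p = 0.00233, adjusted p = 0.0472; rho = 0.88, p = 0.00724, adjusted p = 0.109) and 0.69 without S3 and S4. Trib3 followed it likewise (r = 0.89, exact permutation p = 0.00476, adjusted p = 0.0476; rho = 0.79, p = 0.0279, adjusted p = 0.168), and r was 0.70 without S3 and S4. Chac1 gave r = 0.80 (exact permutation p = 0.0621, adjusted p = 0.146; rho = 0.33, p = 0.428, adjusted p = 0.535), and 0.12 without S3 and S4. With the endothelial sum Trib3 gave r = 0.34 (exact permutation p = 0.405, adjusted p = 0.434; rho = 0.33, p = 0.428, adjusted p = 0.535) and 0.10 without S3 and S6. For Trib3 and the lens sum r was 0.73 (exact permutation p = 0.0423, adjusted p = 0.142; rho = 0.62, p = 0.115, adjusted p = 0.265) and 0.92 without S1 and S5. The sum of lens markers ranged from 280 to 31988 in OIR p17 (median 7330) and from 132.6 to 10746 in nOIR p17 (median 2192). The median log2 fold change of the 6 lens markers at p17 was 1.58. With this spread between pups 0 of 6 were called, which does not show equal lens RNA in the 2 groups.

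The genes whose levels across all 26 pups were most like each member, by Pearson's r of log2(value + 1) among 19004 genes, are given as a description, since these pups share groups and scaling. For Hspa5 they were Pdia3 (0.904), Pdia6 (0.884) and Rpn1 (0.838), which fold or glycosylate proteins in the ER. For Xbp1 they were Sdf2l1 (0.877), Mrrf (0.841) and Creld2 (0.835), and for Hsp90b1 Ascc1 (0.838), Pdia3 (0.837) and Dnajb11 (0.830). These 3 members thus had ER folding genes among their nearest genes.

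The members of the ATF4 arm and Herpud1 had other neighbours. Those of Trib3 were Pvr (0.917), Tm4sf1 (0.909) and Gnai2 (0.902), and those of Chac1 were Bcam (0.870), Trib3 itself (0.859) and Pfkl (0.856). With group means removed these fell to 0.734, 0.532 and 0.512 for Trib3 and to 0.644, 0.588 and 0.652 for Chac1. The values of Hspa5 (0.887, 0.869 and 0.816) and of Atf4 (0.886, 0.885 and 0.893) moved little. Ddit3 was nearest to Bsg (0.903), Ctsd (0.892) and Pkm (0.889), and Atf4 to Tmem138 (0.904), Rps14 (0.898) and Rplp0 (0.894). Asns was nearest to Hsp90ab1 (0.876), Hnrnpc (0.858) and Snx6 (0.843), Herpud1 to Cfdp1 (0.909), Atp6v1e1 (0.886) and Mdh1 (0.886), and Sesn2 to Igfbp4 (0.795), Ppm1m (0.777) and Nus1 (0.755). With group means removed, in the same gene order, the values were 0.822, 0.830 and 0.841 for Ddit3 and 0.743, 0.638 and 0.734 for Sesn2. For Xbp1 they were 0.896, 0.722 and 0.886, and for Hsp90b1 0.867, 0.863 and 0.867. Asns had 0.927, 0.926 and 0.875, and Herpud1 0.909, 0.875 and 0.866.

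The other genes of these pathways were followed in 9 lists that together hold 112 distinct genes, of which 111 were tested. In OIR, 11 were higher and 1 was lower at p14, and 24 were higher and 2 were lower at p17, with median log2 fold changes of 0.03 and 0.09, against 3.18% of all genes higher and 2.91% lower at p14 and 7.39% and 5.12% at p17. Without the lens-rich pups the counts were 10 and 1 at p14 and 20 and 2 at p17, where 6.20% of all genes were then higher and 3.89% lower. The calls lost were those of Ssr3 at p14 and of Aldh18a1, Aldh1l2, Pdia6 and Sec61a1 at p17, which are named for that reason after their values were seen. Their log2 fold changes were 0.35, 0.40, 1.15, 0.40 and 0.29 with the lens-rich pups. Without them they were 0.38, 0.31, 0.97, 0.31 and 0.23. Each list gene described below kept the calls given for it. For the effect at p17 minus that at p14, 2 were higher and 0 lower, a share near the 1.43% of all genes. From nOIR p14 to nOIR p17 the limma counts were 0 and 0, against 0.158% in each direction. From OIR p14 to OIR p17 they were 8 and 0, against 4.11% and 1.81%. Without the lens-rich pups, the change of effect was called for 1 gene and the OIR age difference for 5, against 0.810% and 2.37% of all genes higher.

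**Figure D4:**
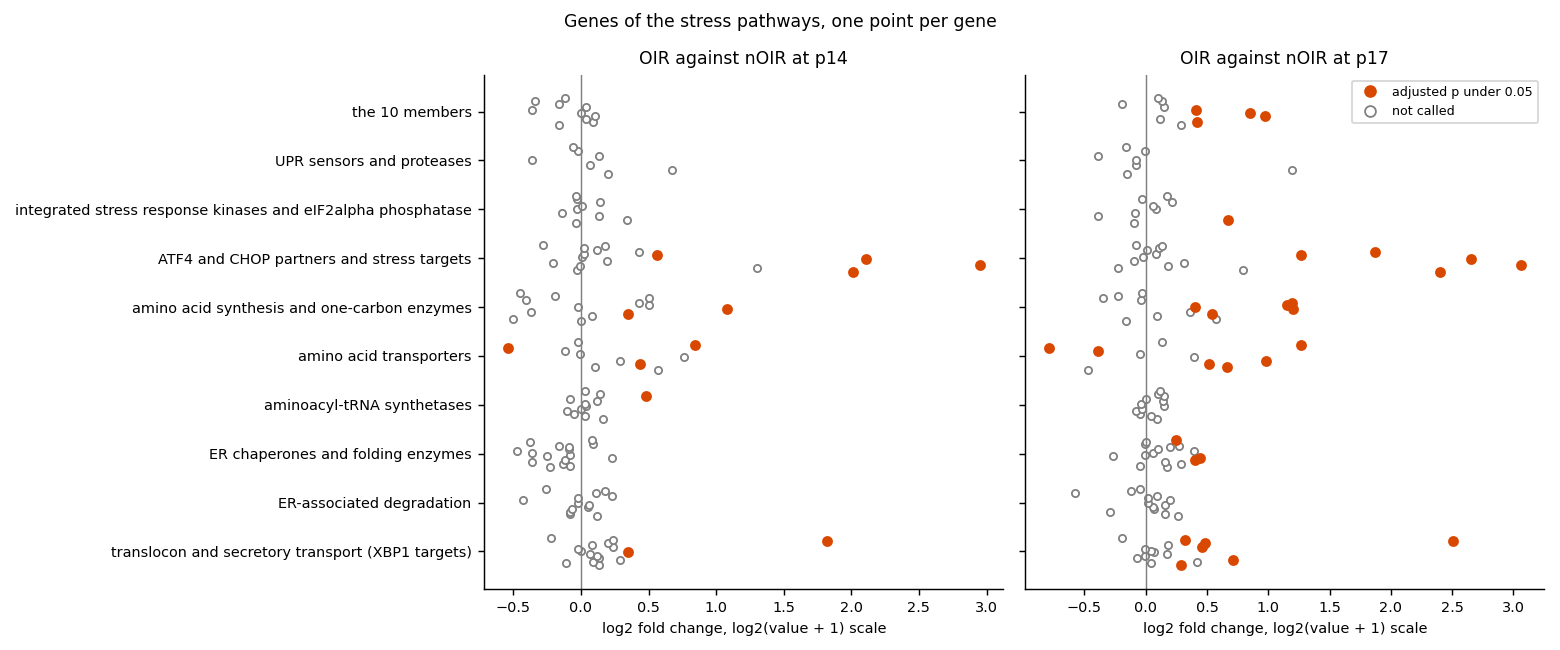
Log2 fold change of OIR against nOIR at p14 (left) and p17 (right), on the log2(value + 1) scale, 1 point per gene, with the members in the top row and the 9 pathway lists below. Filled points have an adjusted p under 0.05, and the farthest to the right at p17 are Nupr1 (3.06), Stc2 (2.65) and Kdelr3 (2.51), while 0 of 7 sensors and proteases and 0 of 13 degradation genes are filled.

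The lists upstream of the members come first, with 7.39% of all genes higher and 5.12% lower at p17 as the background for each list at that age, and 3.18% and 2.91% at p14. Of 7 genes for the stress sensors and their proteases, 0 were called at p14 or p17, and their median log2 fold change at p17 was -0.08. Of 9 genes for eIF2alpha, its kinases, its phosphatase and the factors that act with them, 0 were called at p14 and 1 at p17, Eif2ak2, which encodes PKR, the kinase that responds to double-stranded RNA. The lists share Eif2ak3, and 1 call over both is near that background. Eif2ak2 ranged from 56.59 to 133.5 normalized reads in nOIR p17 and from 99.3 to 192.7 in OIR p17, with a log2 fold change of 0.67 (SE 0.22, adjusted p = 0.0399 by limma).

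Among partners and stress targets of ATF4 and CHOP a few genes rose at both ages and most were not called. Of 17 listed, 16 were tested, and 4 were higher at p14 and 5 at p17, with 0 lower at either, while 12 and 11 did not pass. Nupr1, a small stress-induced chromatin protein gene, ranged from 93.7 to 161 normalized reads in nOIR p17 and from 533.6 to 1739 in OIR p17. Stc2, which encodes the secreted stanniocalcin 2, ranged from 25.98 to 52.93 and from 206.1 to 392.7. Neither gene overlapped between the groups at p17. Their log2 fold changes were 3.06 (SE 0.25, adjusted p = 2.09e-10) and 2.65 (SE 0.23, adjusted p = 5.79e-10) at p17 by limma. At p14, where 0 of the 10 members were called, they were 2.95 (SE 0.26) and 2.11 (SE 0.24, adjusted p = 6.98e-07), and both passed the test.

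Amino acid supply genes were mixed. Of 13 enzymes of amino acid synthesis and one-carbon metabolism, 2 were higher at p14 and 5 at p17, with 0 lower. Mthfd1l, an enzyme of mitochondrial folate metabolism, rose by 1.08 on the log2 scale at p14 and by 1.20 at p17 (adjusted p = 5.84e-06 and 7.29e-08), and Shmt2, the mitochondrial serine hydroxymethyltransferase, by 0.35 and 0.54 (adjusted p = 0.0141 and 1.94e-05 by limma). Of 10 amino acid transporters, 2 were higher and 1 lower at p14, and 4 were higher and 2 lower at p17.

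Transporters called at p17 went in both directions. Slc7a1, for cationic amino acids, ranged from 296.4 to 430.2 normalized reads in nOIR p17 and from 587.1 to 723.7 in OIR p17 (log2 fold change 0.98, adjusted p = 7.81e-09). Slc1a4, for neutral amino acids, had a log2 fold change of 1.27 (adjusted p = 2.23e-08). Slc6a9, the glycine transporter GlyT1 and also one of the 6 markers of bipolar, amacrine and ganglion neurons above, ranged from 3392 to 4379 in nOIR p17 and from 2040 to 2858 in OIR p17 (-0.79, adjusted p = 1.99e-07), and Slc38a1, a glutamine transporter, had -0.39 (adjusted p = 4.95e-05 by limma). Of 12 aminoacyl-tRNA synthetases, 1 was higher at p14, Lars (0.48, adjusted p = 0.00291), and 0 were called at p17.

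In the ER itself, 0 of 16 chaperones and folding enzymes were called at p14 and 3 were higher at p17. P4hb, a protein disulfide isomerase, had a log2 fold change of 0.44 (SE 0.09, adjusted p = 8.61e-04) and Ppib, the cyclophilin of the ER, of 0.25 (SE 0.06, adjusted p = 0.00778 by limma). Both also take part in collagen folding. Of 13 genes of ER-associated degradation, 0 were called at either age, which is near the background of 7.39% of all genes higher at p17. Of 16 genes of the translocon and secretory transport, which include known XBP1 targets, 2 were higher at p14 and 6 at p17, with 0 lower. Kdelr3, a receptor that returns proteins to the ER, ranged from 49.6 to 116.9 normalized reads in nOIR p17 and from 289.3 to 696.8 in OIR p17 (log2 fold change 2.51, adjusted p = 5.13e-11), and Sec24d, a coat protein of ER export vesicles, had 0.71 (adjusted p = 1.28e-05).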

How the data were processed

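RNA of whole retinas was amplified with a low-input kit that marks neither strand nor molecule. Per the study's methods and the submitters' processing notes, the authors aligned reads with STAR 2.7.8a to the mouse genome (GENCODE M28), counted them per gene with featureCounts 2.0.1 and normalized them with DESeq2 1.34. The deposited signal values are these counts divided by 1 size factor per pup. Values were whole multiples of 1 read's worth in all 27 pups (tolerance 0.001). The table's group means, fold changes and adjusted p-values, which hold the authors' own comparisons, were not used. The members and lists were chosen with earlier results of these data known.

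Differences were tested with limma 3.58.1 (R 4.3.3; trended variance) on log2(value + 1) for the 27137 genes with a mean of at least 1 over 26 pups, in 1 fit of 4 groups, with Benjamini-Hochberg adjustment. Exact permutation tests (scipy) exchanged pups between groups. Beside all members, the text names up to 2 genes per list and direction with the smallest adjusted p at p14 or p17 and a mean of at least 10, and the 3 genes most like each member. Other genes were named as exceptions after their values were seen. The alternatives used edgeR 4.0.16 and DESeq2 1.42.0 on recovered reads, of which 100% were whole, and the other settings given at the end. P-values rest on separate pups and treat littermates as independent. Litter could not be modelled, since the litter of each sample is not given in the sources used here. The authors' build differs from the annotation at hand, so coordinates are given only for RefSeq windows.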

Additional observations from a re-analysis of the deposited data

Results flagged for a closer look

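Among 40 sets of values (10 members in 4 groups), 5 had a pup whose gap to its neighbour was large for the range of its group (Dixon's criterion), where chance alone gives about 1 in 20. In nOIR p14, Trib3 was 268 normalized reads in S5 against 160.1 to 192.9 in the other pups, and Chac1 was 134 in the same pup against 79.91 to 90.51. That pup had the highest lens marker sum of its group (18003). Asns was 1190 in nOIR p14 S1 against 1648 to 1783. Ddit3 was 703.9 in nOIR p17 S1 against 985.9 to 1148, and Chac1 was 72.45 in OIR p17 S4 against 155.4 to 225.9.

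The OIR effect differed between the ages for Trib3, by 0.87 on the log2 scale, and for Xbp1, by 0.76, in the limma test of the difference itself. Trib3 passed in 14 of 38 alternatives and Xbp1 in 36. Neither passed without the lens-rich pups (adjusted p = 0.353 for Trib3 and 0.131 for Xbp1) or with the replicate block (0.184 and 0.0762).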

How the results depend on the processing

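Trib3 and Chac1 kept their direction and their call at p17 in all 39 alternatives. The count of members higher at p17 fell from 4 to 2 when only the compared groups were fitted, and with the replicate number as a block. It was also 2 without the lens-rich pups (an alternative chosen after seeing the data), and 2 to 4 when 1 pup was left out. All genes higher were 1924 of 26975, 1890 of 27137 and 1684 of 27168 tested in the first 3 settings. They were 1820 to 2136 when 1 pup was left out, against 2005 in the fit used above. Quantile normalization added Hspa5 (0.40, adjusted p = 0.0186 by limma). Replicate numbers did not pair the pups (median correlation of deviations 0.014 for the same number, -0.003 for other numbers). For the effect at p17 minus that at p14, the count of 2 became 1 with genes above 0 in any pup or quantile normalization. It was 0 with the replicate block or without the lens-rich pups, and 1 to 3 when 1 pup was left out. In the same order, all genes higher were 316 of 39873, 351 of 27137, 255 of 27137 and 220 of 27168. With 1 pup left out they were 317 to 444, against 389 in the fit used above. For OIR p17 against OIR p14 the count of 4 became 1 without the lens-rich pups and 3 to 5 when 1 pup was left out. Of all genes 2.37% were higher without the lens-rich pups, against 4.11% with them. The number higher was 949 to 1238 when 1 pup was left out, against 1114 in the fit used above. Members lower at p14 went from 0 to 1 with the compared groups only (Xbp1, adjusted p = 0.0469), the Cryaa covariate or DESeq2. They were 0 to 1 when 1 pup was left out. In the same order, all genes lower were 634 of 27200, 850 of 27137 and 963 of 27137. With 1 pup left out they were 585 to 830, against 790 in the fit used above. With the block, Ddit3 (0.33, adjusted p = 0.0891) and Xbp1 (0.37, adjusted p = 0.0629) lost their p17 calls.

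Over all members, comparisons and alternatives, 1843 values kept direction and call, 59 lost a call in the same direction, 17 gained one and 21 changed sign. The change of effect could not be fitted on the compared groups only. Signs turned only for differences near 0 that passed no test. Chac1 at p14 became -0.02 with S4 included, edgeR or DESeq2, -0.10 with quantile normalization and -0.06 with the Cryaa covariate, and ran from -0.04 to 0.11 when 1 pup was left out. Chac1 between the nOIR ages became -0.03 with the Cryaa covariate and 0.00 to 0.16. Asns at p14 ran from -0.07 to 0.11, and its change of effect was -0.00 without the lens-rich pups. The change of effect of Herpud1 was 0.00 with quantile normalization and -0.09 to 0.08 when 1 pup was left out. Reads were not separated by strand or molecule, which limits genes that overlap others or have low counts, as Chac1 does.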
